A study of Sus scrofa with 48 samples.

Results

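Interferon-stimulated genes are the genes that cells switch on after interferon binds its receptor, and 50 listed names were looked up here in RNA-seq of ileum and hypothalamus of weaned piglets (Sus scrofa). RIGI and DDX58 are names of the same gene, so the list holds 49 genes. Of these, 45 were found among the 22924 genes of the count table, through symbols that a RefSeq gene table gave for 14894 of the identifiers. IFIT3, XAF1, RNF213 and RTP4 matched no row and are not analysed here. The 45 genes were named by a list and not by their values, although the list was chosen with earlier results of these data known. By role they are 5 sensors of viral nucleic acid, 7 regulators of transcription, 10 genes of the ISG15, ubiquitin and ADP-ribose systems, 10 RNA-binding or RNA-cutting effectors and 13 other effectors. All 45 passed the filter on low counts in both tissues.

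The ileum is the last part of the small intestine and the hypothalamus is the brain region that governs feeding and hormone release. The 48 libraries form 8 groups of 6, which are low and high growth on day 7 and on day 39 in each tissue. Growth was classed by average daily gain, measured from day 0 up to day 7 or day 39, and the labels name no strain, sex, age, litter, pen, infection or other treatment, and no batch. The labels list separate samples without saying that each is another piglet, so p-values measure the spread among these samples, part of which may be technical. The labels do not say which ileum and hypothalamus libraries came from 1 animal. The library numbers of both tissues lie 108 apart, with the same day and growth class in 24 of 24 cases, so they may mark shared animals, and the tests treat the libraries as unpaired.

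Interferons are secreted proteins that warn neighbouring cells of infection. Type I and type III interferons act through the kinases JAK1 and TYK2 to build a transcription factor that contains STAT2 and IRF9, whereas interferon gamma uses another receptor and induces IRF1 and the guanylate-binding proteins strongly. Many of the induced genes block virus entry, translation or replication, and others, such as USP18, dampen the signal. The gut lining keeps a low interferon response going even without disease, while healthy brain is known for low levels.

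Total estimated counts (in M, mega) were 14.4 to 23.2 M per library in ileum and 14.2 to 21.1 M in hypothalamus. In ileum the enterocyte markers VIL1, CDH17, FABP2 and 7 others were all above 0 in every library. In hypothalamus the same was true of 8 neuron and 6 astrocyte markers. Some libraries stood apart. In the ileum day 7 high growth group, replicate 1 held a summed level of 25.9 CPM (read counts scaled for library size) for the 7 B cell markers found of 8, none of them at 0, where the other 5 libraries of its group had 1623 to 2528 and the low growth libraries 747 to 2567. Its smooth muscle sum was 11960 CPM against 2263 to 5105 in the other 11 libraries of the day, and its enterocyte sum of 17580 CPM was the highest of the day. Replicate 5 of that group had the lowest macrophage sum of the day, 461 CPM against 811 to 1635. In hypothalamus day 39 low growth, replicate 3 had an oligodendrocyte sum of 424 CPM against 2011 to 149700 in the other libraries of that day, and replicate 1 a pituitary sum of 3603 CPM against at most 8.47 in any other library. The RNA is from whole tissue, so fewer cells of a type and less RNA per cell cannot be told apart.

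The members were far more abundant in ileum than in hypothalamus. Of the 45 genes, 42 were called higher in ileum and 0 lower (edgeR quasi-likelihood test over all 48 libraries, adjusted p under 0.05), where 40.7% of the 16976 genes tested were called higher in ileum and 44.4% lower. The median log2 fold change, ileum minus hypothalamus, was 2.08 over the members and -0.08 over all genes tested. Their total level, scaled within each tissue, was 3126 to 25030 CPM in the ileum libraries and 1046 to 9842 CPM in those of hypothalamus. The fold changes and CPM ranges in the next paragraph were scaled over all 48 libraries, and its mean log2 CPM values within each tissue. Since no transcript lengths were used, CPM does not order genes by transcript level.

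OASL, an RNA-binding relative of the oligoadenylate synthetases, had the largest difference, at 6.64 ± 0.44 on the log2 scale (SE, adjusted p = 2.91e-18). It ranged from 2.01 to 222.5 CPM with a median of 82.1 in ileum, and from 0 to 5.49 CPM with a median of 0.564 in hypothalamus. ISG20, an exonuclease that degrades single-stranded RNA, followed at 5.31 ± 0.39 (adjusted p = 8.31e-17), with 17.1 to 108.9 CPM against 0 to 7.06 CPM. OAS1, which makes the short oligoadenylates that activate RNase L, differed by 3.59 ± 0.30 (adjusted p = 5.61e-15) and DDX60, a helicase linked to RIG-I signalling, by 3.37 ± 0.35 (adjusted p = 3.45e-12). In 6 members, ISG20, SAMD9, PLSCR1, DTX3L, TRIM25 and SP110, every ileum library lay above every hypothalamus library. The share of all tested genes that separated in this way was not counted, so these 6 are a description and not a trait of the members. The 3 members not called were IFIT5 at 0.48 ± 0.23 (adjusted p = 0.0553), EIF2AK2 at 0.30 ± 0.19 (adjusted p = 0.129) and ADAR at 0.23 ± 0.16 (adjusted p = 0.17). EIF2AK2 is the kinase PKR, which halts translation on sensing double-stranded RNA, and ADAR edits double-stranded RNA. By reads, not per length, the members with the highest mean log2 CPM were IFI6 (9.20), OAS1 (8.92) and LGALS3BP (8.92) in ileum and IFI6 (8.24), MX1 (7.80) and ADAR (6.96) in hypothalamus. Those with the lowest were TRIM21 (4.95), NMI (5.11) and ISG20 (5.42) in ileum and OASL (-0.57), ISG20 (-0.31) and NMI (2.99) in hypothalamus. A fit left out 3 libraries that stood apart, ileum day 7 high growth replicates 1 and 5 and hypothalamus day 39 low growth replicate 3. It also called 42 members, and it kept hypothalamus day 39 low growth replicate 1, the library with the high pituitary sum.

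**Figure D1:**
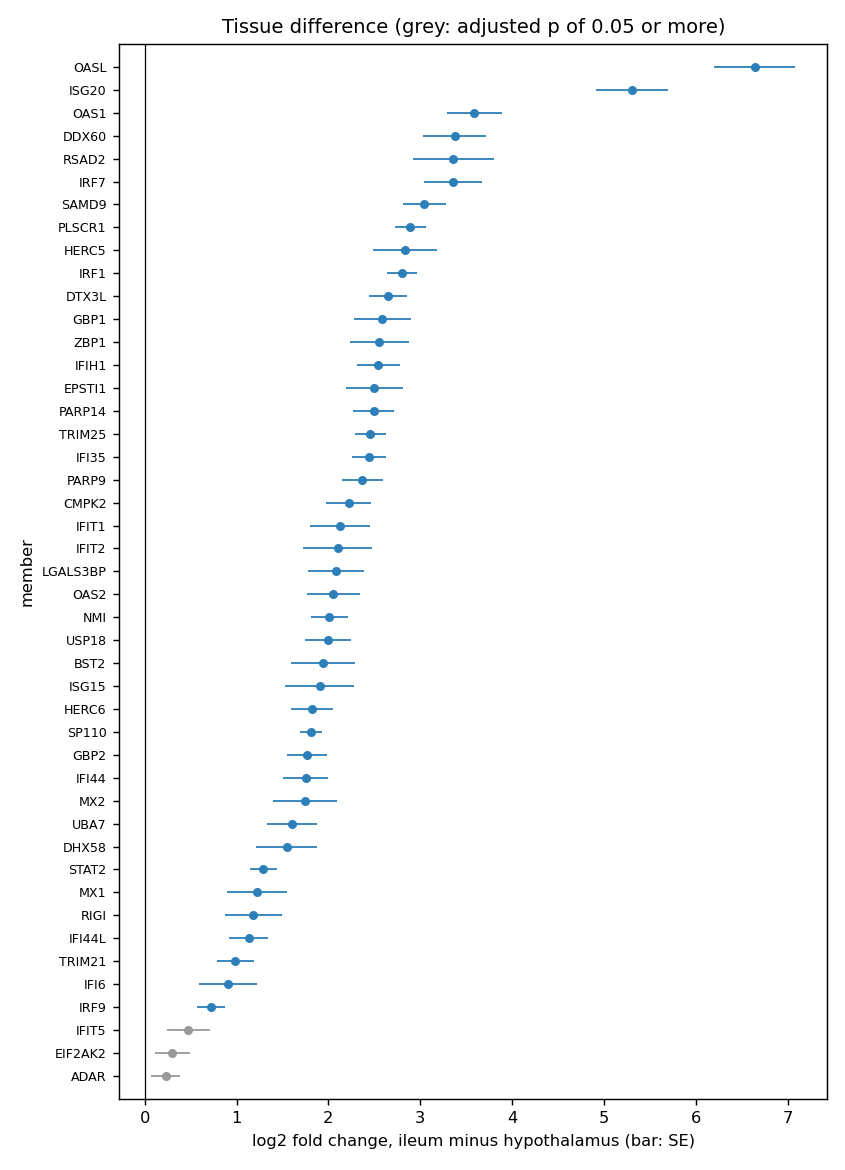
The log2 fold change of each of the 45 members between ileum and hypothalamus is on the horizontal axis, with its SE as a bar, and the members are ordered by it on the vertical axis. All 45 points lie above 0, and the 3 in grey, ADAR, EIF2AK2 and IFIT5, were not called at an adjusted p under 0.05.

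Within a tissue, many members were high or low in the same libraries, and in ileum on both days and hypothalamus on day 7 a single library held the highest value of most members. In ileum on day 7, high growth replicate 1 had the highest value of the 12 libraries in 40 of 45 members and lay above the day's median in all 45. Its mean log2 CPM over the members was 8.57. The other 5 high growth libraries, replicates 2 to 6, had 7.85, 7.59, 7.45, 6.77 and 6.24. The low growth libraries, replicates 1 to 6, had 6.96, 6.01, 6.63, 6.85, 7.09 and 7.91. Both groups thus overlapped over most of their range, with low growth replicate 2 the lowest of the day in 20 members and high growth replicates 5 and 6 the lowest in 9 and 8. The members not highest in replicate 1 were IFI6 (highest in high growth replicate 2), IFI35 and LGALS3BP (high growth replicate 3), and BST2 and SP110 (low growth replicate 6).

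On day 39 in ileum the extreme libraries were both of low growth. Replicate 2 had the highest value in 36 members, with a mean log2 CPM of 8.38, and replicate 5 the lowest in 31, with 5.44. The other low growth libraries, replicates 1, 3, 4 and 6, had 7.28, 7.13, 5.98 and 6.82. The high growth libraries, replicates 1 to 6, had 7.38, 7.59, 6.27, 6.88, 7.91 and 6.83, all within the range of the low growth group. RSAD2 encodes viperin, which makes a nucleotide that stops viral RNA synthesis, and showed the span: 1065 CPM in low growth replicate 2 and 12.7 CPM in replicate 5. ISG15 went from 1084 to 18.1 CPM between the same libraries.

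In hypothalamus on day 7, 2 libraries of different groups lay above the day's median in all 45 members, and in each member 1 of them had the highest value. High growth replicate 2 had a mean log2 CPM of 6.74 and was the highest of 12 in 35 members, and low growth replicate 6 had 6.29 and was the highest in the other 10. The other 5 high growth libraries had 3.85 to 4.84, and the other 5 low growth libraries 3.58 to 5.32. The 10 members that were highest in low growth replicate 6 were IRF1, USP18, DTX3L, OAS1, ADAR, IFIT2, ISG20, SAMD9, MX2 and GBP2. Low growth replicate 6 also had the highest macrophage and T cell sums of the day, 1450 and 103 CPM, and the lowest smooth muscle sum, 64.5 CPM. High growth replicate 2 had the highest smooth muscle sum, 532 CPM, the lowest neuron sum, 461 CPM, and a macrophage sum of 1126 CPM. By mean log2 CPM over the same markers, the order for macrophages and T cells differed from that of the sums. For macrophages, high growth replicate 2 was the highest at 6.03, and low growth replicate 6 had 5.652. For T cells, low growth replicate 4 was the highest. Low growth replicate 6 had 0.734 there, against 1.197 in high growth replicate 2. The part of these differences in the members' levels was not tested. On day 39 the spread was smaller, with means of 4.0 to 5.45 in low growth and 4.64 to 5.36 in high growth, and low growth replicate 4 was the lowest in 32 members. The highest values of that day were spread over 8 libraries. In low growth, 15 members were highest in replicate 2 and 13 in replicate 1, while replicate 3 was the highest in 6 and the lowest in 5. Replicate 1 is the library with the high pituitary sum and replicate 3 the one with the low oligodendrocyte sum.

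**Figure D2:**
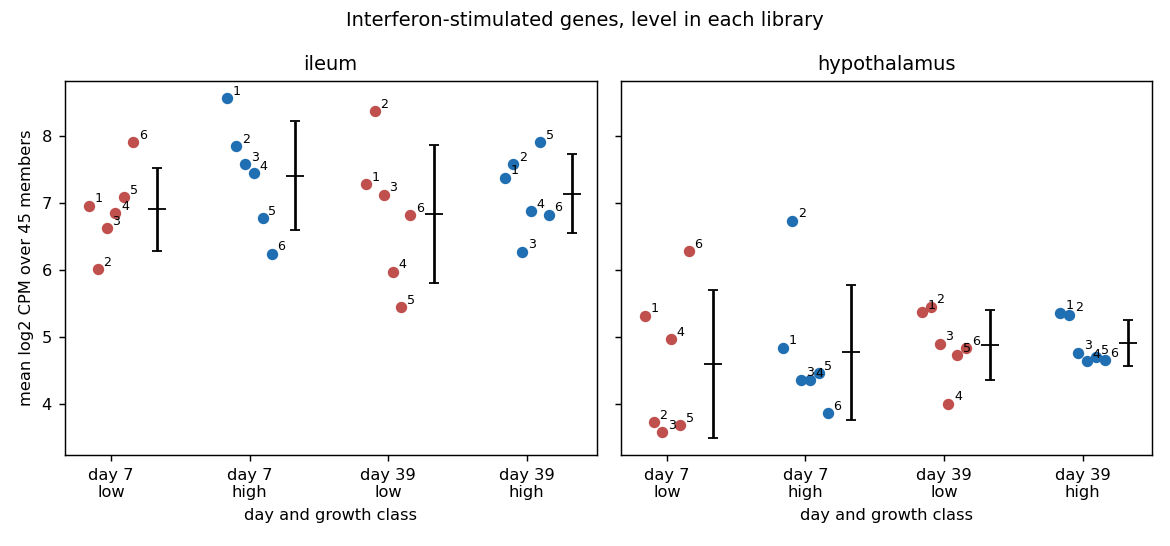
Each point is 1 library, numbered by its replicate, with the mean log2 CPM over the 45 members on the vertical axis and the day and growth class on the horizontal axis; bars give the group mean and SD (n = 6). In ileum the low and high growth groups overlap on both days, and in hypothalamus on day 7 the 2 highest points are low growth replicate 6 and high growth replicate 2.

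The members varied more between libraries of the same group than most genes. The median SD within groups was 0.83 on the log2 CPM scale over the members in ileum, where it was 0.46 over all tested genes, and 43 of 45 members exceeded that value. In hypothalamus it was 0.89 against 0.45, and 44 of 45 members exceeded it. RSAD2 was the most variable in both tissues, with an SD of 1.59 in ileum and 1.54 in hypothalamus, and SP110, a nuclear body protein, the least, with 0.35 and 0.42. STAT2, a transcription factor of the type I response, was also among the steadier members in ileum at 0.41, as was IRF9, its DNA-binding partner, at 0.48. On day 7 the highest library exceeded the lowest by a median of 6.55-fold over the members in ileum and 10.3-fold in hypothalamus (43 members, as 2 had a library at 0). On day 39 the same ratio was 6.40 in ileum and 3.59 in hypothalamus.

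**Figure D3:**
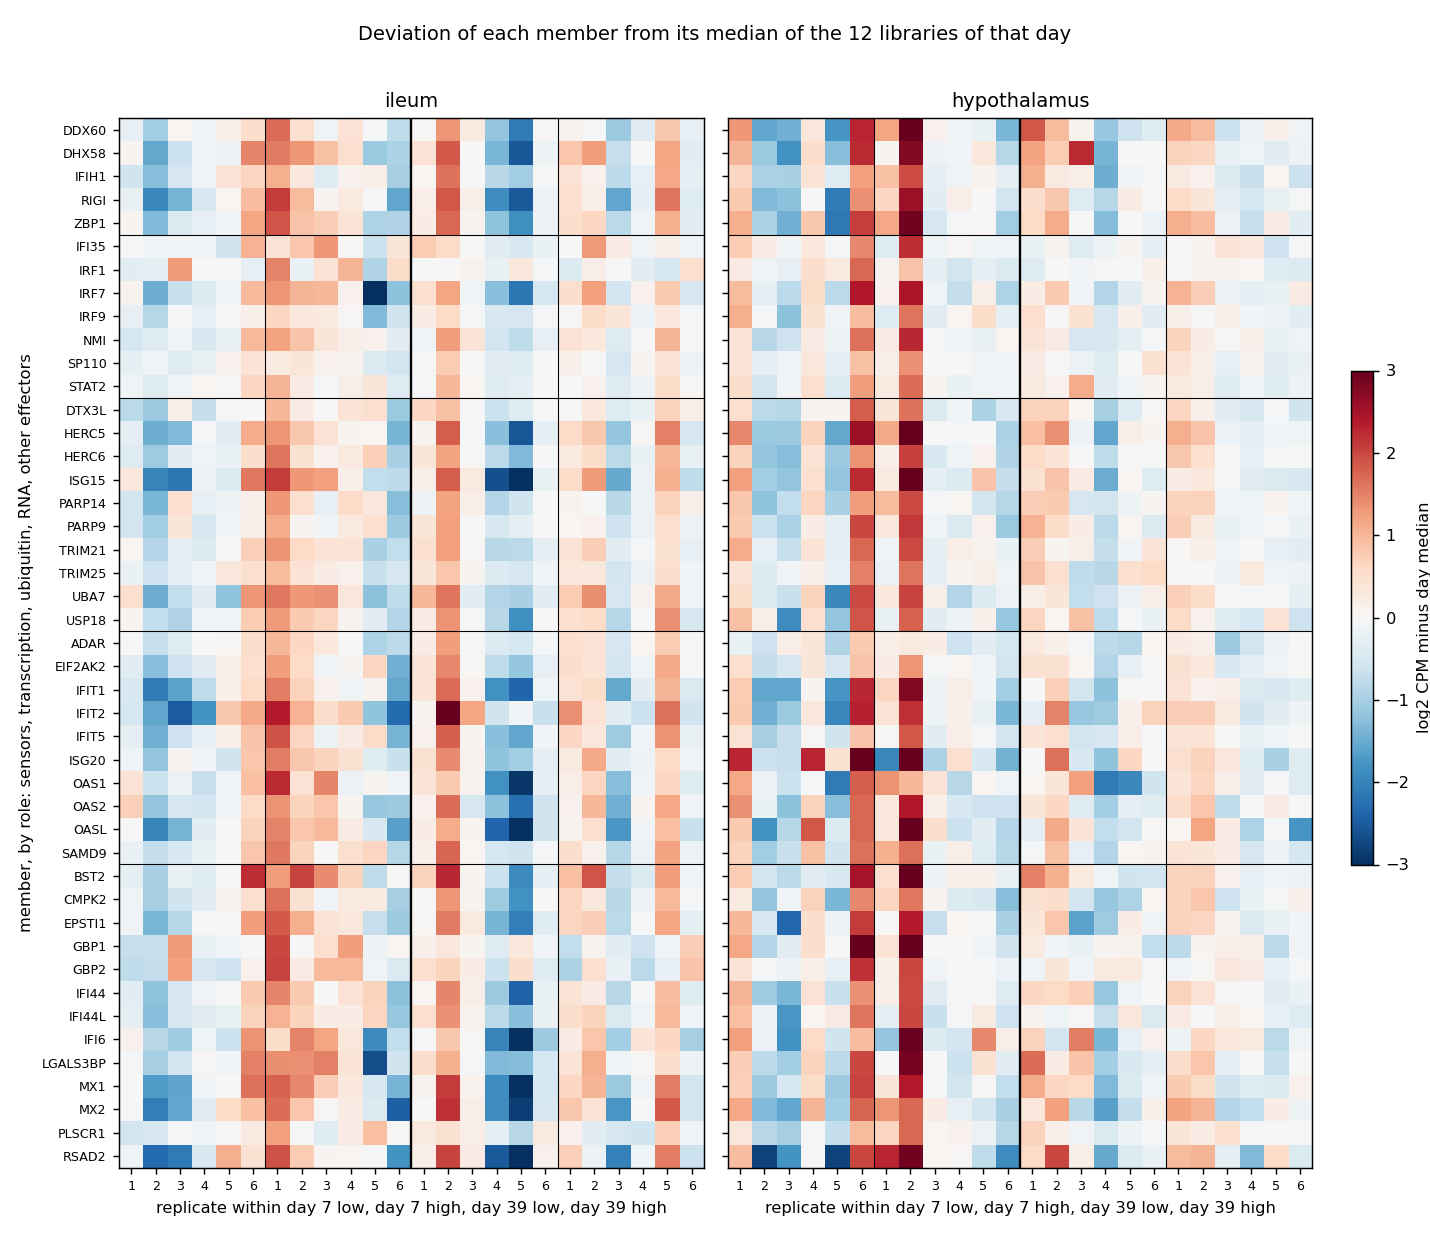
Each row is a member and each column a library, with colour giving its log2 CPM minus the member's median over the 12 libraries of that tissue and day (red higher, blue lower, colours end at 3 and -3). Whole columns are red or blue across roles, among them day 7 high growth replicate 1 and day 39 low growth replicates 2 and 5 in ileum, and day 7 low growth replicate 6 and high growth replicate 2 in hypothalamus.

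The growth comparison in ileum on day 7 asks whether piglets that gained little after weaning differed in gut expression. The point estimates of all 45 members were lower in low growth, but no member passed the test: 0 of 45 were called (edgeR quasi-likelihood test, adjusted p of 0.846 to 0.99), as were 0% of the 15256 genes tested. DESeq2 and limma voom also called 0 members. The median log2 fold change, low minus high growth, was -0.57 over the members, with a range of -1.03 in IFIT2 to -0.06 in SP110. Over all genes the median was -0.05, and 58.1% lay below 0. At an unadjusted p under 0.05 there were 3 members, all lower, which is 3 of 45 beside 5.65% of all genes. By role the medians were -0.54 for sensors, -0.39 for transcription, -0.56 for the ISG15 and ubiquitin group, -0.68 for RNA effectors and -0.60 for other effectors. In no member did the groups separate, which was rare over all 15256 genes too (10 with low growth below, 11 with it above). Of the members, 35 had 5 of 6 low growth libraries under the high growth median, 8 had 4 and 2 had 6. This split was not counted over all genes. Many members were high or low in the same libraries, so neither the 45 signs nor this split are independent observations.

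Among the sensors, RIGI, which detects viral RNA with a free end, had 44.0, 133.3 and 319 CPM in low growth (lowest, median, highest) and 57.5, 192 and 724 CPM in high growth. The groups overlapped and only high growth replicate 1 and replicate 2, with 325 CPM, exceeded every low growth library, for a log2 fold change of -0.93 ± 0.63 (SE, n = 6 per group, adjusted p = 0.882 by edgeR). IFIH1, the sensor MDA5 for long double-stranded RNA, had a lowest value of 30.4 and a median of 60.2 CPM in low growth against 37.3 and 83.3 CPM, a change of -0.30 ± 0.41 (edgeR adjusted p = 0.971).

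Among the transcription genes, IRF7, which amplifies type I interferon production, had 87.3, 202 and 470.3 CPM in low growth and 26.8, 372 and 604 CPM in high growth. The lowest library of all was high growth replicate 5. STAT2 had 182, 220 and 360.1 CPM against 179, 269 and 472 CPM, a change of -0.25 ± 0.24 (edgeR adjusted p = 0.93). IRF1, the factor that interferon gamma induces, had 115.5, 134.1 and 358 CPM against 77.8, 207 and 411 CPM, with the low growth maximum in replicate 3.

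Among the ISG15 and ubiquitin genes, ISG15, the ubiquitin-like protein that is attached to other proteins, had 63.8, 236 and 865 CPM in low growth and 168, 497 and 1236 CPM in high growth. The ranges shared all values between 168 and 865, and the change was -0.84 ± 0.72 (edgeR adjusted p = 0.922). USP18, which removes ISG15 and blocks the type I receptor, had 44.2, 78.8 and 140.7 CPM against 45.3, 110 and 201 CPM. DTX3L, a ubiquitin ligase that works with PARP9, had 30.7, 51.0 and 74.9 CPM against 29.9, 81.7 and 129 CPM, and all 6 low growth libraries lay under the high growth median. Its change was -0.63 ± 0.30 with the lowest p among the members (edgeR adjusted p = 0.846). DTX3L and PARP9 lie beside each other on chromosome 13 of Sscrofa11.1, at 137950266 to 137961381 and 137960987 to 138000862, and their annotated spans overlap, so reads of this stretch may have been assigned to either.

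Among the RNA effectors, OAS1 had 249, 362 and 751 CPM in low growth and 357, 486 and 1917 CPM in high growth, a change of -0.91 ± 0.49 (edgeR adjusted p = 0.846). IFIT1, which binds viral RNA lacking the host's cap methylation, had 126, 350 and 808 CPM against 185, 577 and 1554 CPM. IFIT2, its partner, had 21.6, 63.4 and 272 CPM against 24.7, 196 and 646 CPM, the largest change at -1.03 ± 0.74 (edgeR adjusted p = 0.887). In all 3 the highest value was that of high growth replicate 1.

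Among the other effectors, MX1, a GTPase that blocks influenza and other viruses, had 165, 523 and 1680 CPM in low growth and 205, 788 and 1830 CPM in high growth. BST2, or tetherin, which holds budding viruses at the cell surface, had 32.7, 54.9 and 300 CPM against 37.8, 127 and 263 CPM. RSAD2 had 81.2, 340.4 and 871 CPM against 118.9, 432 and 1557 CPM. PLSCR1, a membrane protein that limits virus entry, had 92.7, 129 and 165 CPM against 106, 151 and 321 CPM, a change of -0.57 ± 0.27 (edgeR adjusted p = 0.846). The guanylate-binding proteins attack the vacuoles and membranes of pathogens. GBP2 had 40.9, 47.0 and 163 CPM against 50.7, 108 and 282 CPM, with a change of -0.85 ± 0.41 (edgeR adjusted p = 0.846), and GBP1 had 181, 264 and 712 CPM against 264, 362 and 1178 CPM, at -0.73 ± 0.36 (edgeR adjusted p = 0.846). In both genes, low growth replicate 3 had the low growth maximum and lay above 5 of 6 high growth libraries.

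Without high growth replicates 1 and 5, 43 of 45 estimates stayed below 0 and the median was -0.31, where 49.1% of all genes lay below 0 and their median was 0.01. No member was called (edgeR, lowest adjusted p of 0.725) and 0 members had an unadjusted p under 0.05. STAT2 and IFIH1 moved to 0.04 and 0.06. Leaving out replicate 1 alone gave a median of -0.29, and leaving out any other single day 7 or day 39 library gave -0.42 to -0.85. In the fit with all libraries, markers of other cells also had estimates to 1 side of 0, with 0 called. That fit holds high growth replicate 1, whose smooth muscle sum was 11960 CPM and B cell sum 25.9 CPM. Marker estimates without that library are not given here. All 8 smooth muscle markers (median -0.56), 9 of 10 enterocyte markers (median -0.38, 4 with p under 0.05) and 7 of 8 cytotoxic lymphocyte markers (median -0.48, 3 lower and 1 higher with p under 0.05) had estimates below 0, and 6 of 7 B cell markers above 0 (median 0.24). The part of the cell types in the members' difference was not tested.

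**Figure D4:**
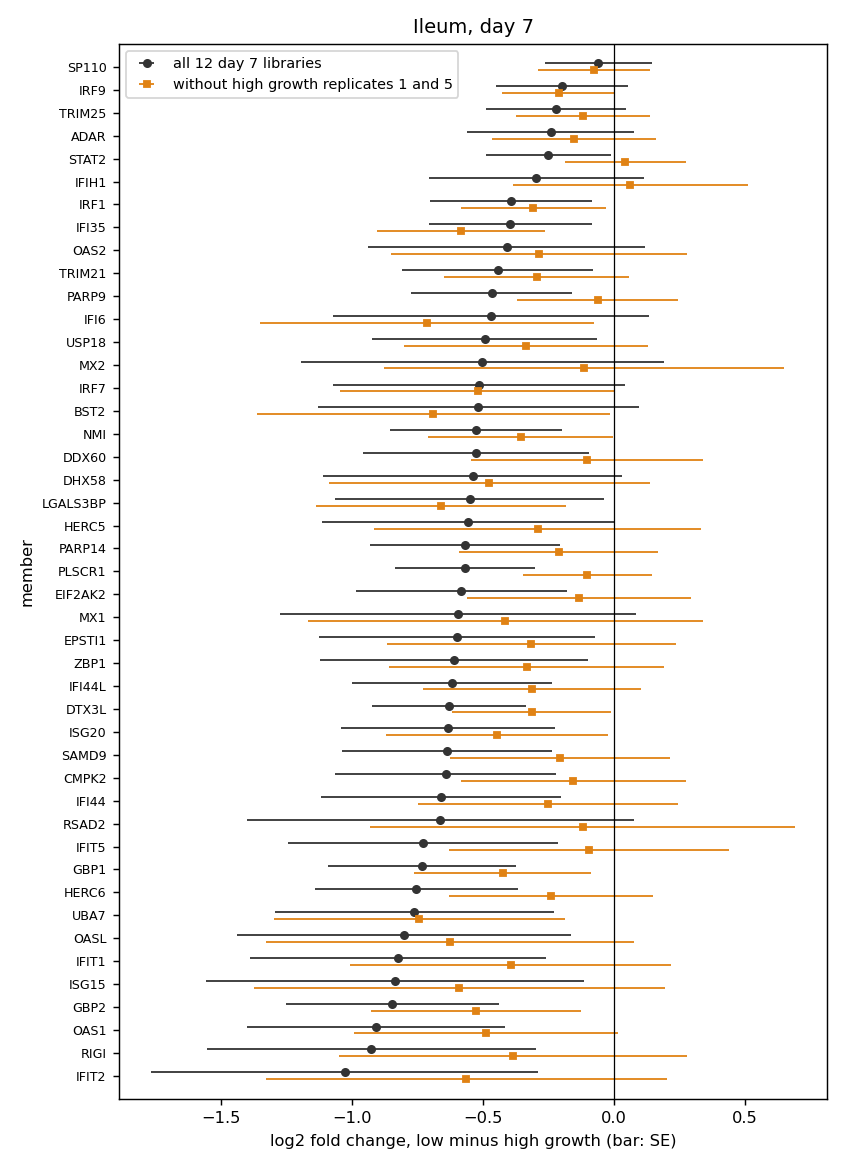
The log2 fold change between low and high growth in ileum on day 7 is on the horizontal axis with its SE, and the members are on the vertical axis, with black circles for all 12 libraries of the day and orange squares without high growth replicates 1 and 5. All 45 black circles lie below 0 and 43 of 45 orange squares do, and no member was called in either fit.

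In ileum on day 39 the estimates were divided, with 29 members lower and 16 higher in low growth and a median of -0.09, beside -0.0039 for all genes. None was called (0 of 45, edgeR adjusted p of 0.999, beside 0% of all genes; DESeq2 and limma voom also 0), and 0 members passed an unadjusted p of 0.05, as 1.06% of all genes did. The 4 members of lowest p were IFI6, IFIT2, PARP9 and IRF7. IFI6, a small mitochondrial and endoplasmic reticulum protein, had 32.2, 573 and 1395 CPM in low growth and 390.4, 978 and 1406 CPM in high growth, a change of -0.58 ± 0.60 (edgeR adjusted p = 0.999). IFIT2 had 28.1, 44.8 and 384 CPM against 28.3, 48.4 and 140.6 CPM, and its change of 0.62 ± 0.74 became -0.46 without low growth replicate 2, the library at 384 CPM. PARP9, an ADP-ribosyltransferase partner, went from 0.25 to -0.06 in the same way. IRF7 had 54.1, 196 and 552 CPM against 162, 307 and 570.4 CPM. Without low growth replicate 2, 41 members were below 0 with a median of -0.56. Without low growth replicate 5, or without high growth replicate 5, 13 were, with medians of 0.07 and 0.10, so the sign of the median on day 39 depended on single libraries.

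Growth effects on the 2 days were compared directly. In ileum the difference, day 39 less day 7, was above 0 in 44 of 45 members, with a median of 0.48 beside 0.05 for all genes, but 0 members were called (edgeR, lowest adjusted p of 0.987; DESeq2 and limma voom also 0), as were 0% of all genes, and 0 had an unadjusted p under 0.05, where 3.01% of all genes did. GBP2 had a difference of 1.07 ± 0.57, PLSCR1 of 0.70 ± 0.38, GBP1 of 0.89 ± 0.51 and PARP9 of 0.72 ± 0.44. The median was 0.23 without day 7 high growth replicates 1 and 5 (42 above 0), 0.20 without replicate 1 alone and 0.02 without day 39 low growth replicate 2 (27 above 0). For day 39 minus day 7, averaged over growth, 35 members were below 0 with a median of -0.13, and 0 were called, beside 0.439% of all genes, while 0 members and 8.85% of all genes had an unadjusted p under 0.05. IFIT2 had the lowest p, with a log2 fold change of -0.91 ± 0.52 (edgeR adjusted p = 0.606). NMI and IFI35, which bind each other, had estimates of -0.28 ± 0.23 and 0.25 ± 0.22, and RSAD2 of -0.56 ± 0.52. The median was 0.04 without day 7 high growth replicate 1.

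In hypothalamus on day 7, 32 members were lower and 13 higher in low growth, with a median of -0.10 beside 0.01 for all genes. None was called (0 of 45 by edgeR, lowest adjusted p of 0.638, beside 0% of all genes; DESeq2 and limma voom also 0). The 1 member with an unadjusted p under 0.05 compares with 7.67% of all genes. It was IRF1, with 18.4, 26.6 and 73.5 CPM in low growth and 14.9, 18.1 and 40.1 CPM in high growth, a change of 0.59 ± 0.28 (edgeR adjusted p = 0.638). All 6 low growth libraries lay above the high growth median, although the groups overlapped. RIGI had 12.6, 38.7 and 138.7 CPM against 36.3, 57.5 and 323 CPM, a change of -0.80 ± 0.54 (edgeR adjusted p = 0.752). BST2 had 8.09, 10.9 and 80.1 CPM against 12.5, 15.9 and 205 CPM, at -0.97 ± 0.70 (edgeR adjusted p = 0.767). PLSCR1 had 7.47, 11.7 and 29.4 CPM against 8.31, 16.1 and 50.2 CPM, at -0.54 ± 0.36 (edgeR adjusted p = 0.748). The sensors all had estimates below 0, with a median of -0.50, and the ISG15 and ubiquitin genes split 5 to 5.

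The sign of the median on that day depended on single libraries. Without high growth replicate 2, 2 of 45 members were below 0 and the median was 0.54, and RIGI and BST2 moved to 0.04 and 0.64. Without low growth replicate 2 or 5 the median was 0.02 or 0.03, with 22 and 21 members below 0. Without low growth replicate 6, 43 of 45 were below 0 and the median was -0.60. ISG15 had 27.3, 58.3 and 292 CPM in low growth, the maximum in replicate 6, and 38.1, 63.3 and 711 CPM in high growth, the maximum in replicate 2. MX1 had 87.0, 200 and 758 CPM against 111.3, 185 and 971 CPM, with the same libraries at the maxima. IFIT1 had 19.2, 45.8 and 315 CPM against 32.5, 68.6 and 450.4 CPM, again in the same libraries. OAS1 differed in this, with 5.95, 24.4 and 92.8 CPM in low growth and 14.8, 31.3 and 66.8 CPM in high growth, where replicate 1 was the highest. RSAD2 ranged from 2.68 to 76.4 CPM against 5.08 to 142.5 CPM, and IRF7 9.41, 18.9 and 88.8 CPM against 8.69, 16.7 and 90.7 CPM. In all of these the groups overlapped over most of their range.

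On day 39 in hypothalamus 16 members were lower and 29 higher in low growth, with a median of 0.08 beside 0.02 for all genes. None was called (0 of 45 by edgeR, adjusted p of 0.999, beside 0% of all genes; DESeq2 and limma voom also 0), and 0 members had an unadjusted p under 0.05, as 5.45% of all genes did. DHX58, the sensor LGP2, had 8.56, 30.6 and 106 CPM in low growth and 18.2, 20.4 and 36.7 CPM in high growth, a change of 0.74 ± 0.68. Its maximum was in replicate 3, the library with few oligodendrocyte transcripts. STAT2 had 72.9, 100.3 and 202 CPM against 71.3, 84.8 and 111.3 CPM, at 0.35 ± 0.33, with the maximum in the same library. TRIM25, the ubiquitin ligase of RIG-I, had an estimate of 0.29 ± 0.36 and IFIH1 of 0.33 ± 0.44. ISG15 had 26.3, 82.6 and 133.9 CPM against 53.0, 65.2 and 92.1 CPM, and MX1 92.7, 280.1 and 495 CPM against 153, 215 and 396 CPM. The low growth range held the high growth range in both. For MX1 this rested on low growth replicate 1, the library with the high pituitary sum, as the next low growth library had 352 CPM.

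The difference of growth effects in hypothalamus was above 0 in 31 members with a median of 0.19, and 0 were called by edgeR, DESeq2 or limma voom, beside 0% of all genes. It had an unadjusted p under 0.05 in 0 members and in 7.77% of all genes. IRF1 had a difference of -0.55 ± 0.39, BST2 of 1.25 ± 0.98, IFI6 of 1.08 ± 0.87 and IFIH1 of 0.77 ± 0.62. The median became -0.50 without day 7 high growth replicate 2 and 0.63 without day 7 low growth replicate 6. For day 39 minus day 7, 34 members were below 0 with a median of -0.11, and 0 were called beside 0.0315% of all genes, while 0 members and 9.62% of all genes had an unadjusted p under 0.05. ISG15 had an estimate of -0.82 ± 0.48, GBP1 of -0.88 ± 0.52, OAS1 of 0.62 ± 0.39 and IFI44L, a gene of unclear antiviral function, of -0.46 ± 0.31 (edgeR adjusted p of 0.569 to 0.607). The median was 0.25 without day 7 high growth replicate 2 and 0.19 with limma voom.

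IRF1, GBP1 and GBP2, genes that interferon gamma induces strongly, did not always follow the other 42 members. They were set apart after their values were seen, so the following is a description. In ileum day 7 low growth replicate 3, these 3 genes lay a mean of 1.27 above their day medians on the log2 scale, while the other members lay a mean of 0.64 below theirs, with 5 of 42 above. GBP1 had 712 CPM there and ISG15 63.8 CPM, the lowest ISG15 value of the day. In ileum day 39 low growth replicate 5 the 3 genes lay 0.40 above and the others 1.73 below, with 0 of 42 above. In hypothalamus day 7 low growth replicate 6 and high growth replicate 2 both sets were high, by 2.52 and 1.73 in the former and 2.24 and 2.24 in the latter. Low growth replicate 3 in ileum also had a B cell sum of 747 CPM, the lowest of the day after high growth replicate 1, and the highest macrophage sum, 1635 CPM.

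**Figure D5:**
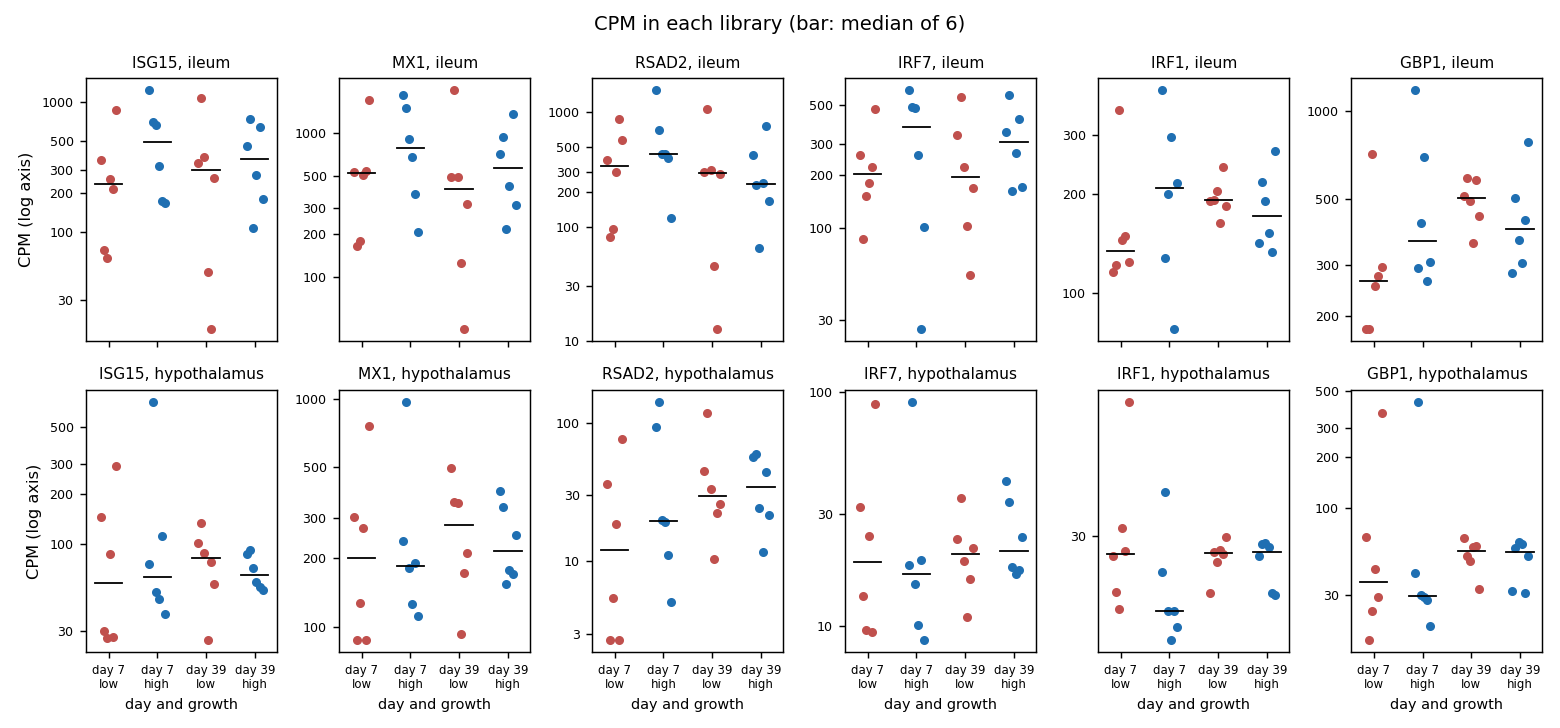
CPM on a log axis is plotted for ISG15, MX1, RSAD2, IRF7, IRF1 and GBP1 in each library by day and growth class, ileum above and hypothalamus below, with a bar at the median of 6. In ileum day 7 low growth the highest IRF1 and GBP1 points, 358 and 712 CPM, are replicate 3, whose ISG15 value of 63.8 CPM is the lowest of its group.

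Some members lie close to each other in the genome, and their levels were compared library by library. Distances are between RefSeq gene spans of Sscrofa11.1. MX1 and MX2, separated by 21436 bases on chromosome 13, lay on the same side of their day medians in 24 of 24 ileum libraries and 18 of 24 hypothalamus libraries. IFI44 and IFI44L, 10372 bases apart on chromosome 6, gave 24 and 18, and IFIT1 and IFIT2, 33110 bases apart on chromosome 14 with IFIT3 between them, gave 22 and 24. CMPK2 and RSAD2, on chromosome 3 with 5585 bases between them, gave 20 and 18. Over all 990 pairs of the 45 members the median was 20 of 24 in ileum and 18 in hypothalamus, with ranges of 12 to 24 and 10 to 24. MX1 and MX2, the OAS, IFIT and GBP genes are related in sequence, and how reads were divided among them is set by the authors' estimation, so single values are uncertain.

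The genes upstream of the members showed no call either. The ligand list held no interferon alpha gene, so that family was not looked up. Of the listed ligands, IFNW1, IFNL1 and IFNL3 matched no row, and the levels of IFNE and IFNK are not described here. IFNB1, interferon beta, was at most 0.306 CPM in any ileum library, with 0 to 5 counts, and at most 0.0581 CPM in hypothalamus. IFNG, interferon gamma, had 0.232, 0.318 and 1.77 CPM in ileum day 7 low growth and 0, 0.517 and 1.70 CPM in high growth. On day 39 it had 0.592 to 2.15 and 0.880 to 1.995 CPM, and its change from day 7 to day 39 was 1.13 ± 0.41 (edgeR adjusted p = 0.355). No listed ligand passed the filter in hypothalamus.

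Of 32 receptor, signalling, sensor and ligand genes tested in ileum, 0 were called for growth on either day. On day 7, 19 were below 0 with a median of -0.05, and 1 lower and 1 higher had an unadjusted p under 0.05. IFNGR1, a chain of the interferon gamma receptor, had 92.8, 135.9 and 172 CPM in low growth and 139.2, 192 and 266 CPM in high growth, a change of -0.59 ± 0.20 (edgeR adjusted p = 0.776). All 6 low growth libraries lay under the high growth median. TYK2 had an estimate of 0.32 ± 0.15 (edgeR adjusted p = 0.846) and TRAF3, an adaptor of the sensors, of 0.26 ± 0.13. On day 39 the lowest p values were those of the kinase JAK2 (0.31 ± 0.23), of IKBKE, which phosphorylates IRF3 and IRF7 (-0.26 ± 0.19), and of UNC93B1, which carries Toll-like receptors to endosomes (-0.55 ± 0.42). In the difference of growth effects they were IFNGR1 (0.73 ± 0.28, edgeR adjusted p = 0.987), TRAF3 (-0.37 ± 0.19) and the RNA sensor TLR3 (0.77 ± 0.41).

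In hypothalamus 30 of these genes were tested and 0 were called for growth. On day 7, SOCS3, a feedback inhibitor of JAK signalling, had 1.15, 3.17 and 14.6 CPM in low growth and 0.929, 1.89 and 2.93 CPM in high growth, a change of 1.43 ± 0.52 (edgeR adjusted p = 0.549). TBK1, the kinase that activates IRF3, had an estimate of -0.37 ± 0.14 (edgeR adjusted p = 0.555), and IRF5 of 0.63 ± 0.33. On day 39, TLR7, a sensor of single-stranded RNA, had an estimate of 0.86 ± 0.33 (edgeR adjusted p = 0.757), with 45.7, 58.1 and 299 CPM in low growth against 45.6, 55.2 and 57.7 CPM. PIAS1, a SUMO ligase that dampens cytokine signalling, had an estimate of 0.65 ± 0.26 and TICAM1, the adaptor of TLR3, of -0.40 ± 0.20. In the difference of growth effects the lowest p values were those of PIAS1 (0.86 ± 0.37), IRF5 (-1.03 ± 0.47) and TLR7 (1.0 ± 0.46), with edgeR adjusted p of 0.627 to 0.634.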

How the data were processed

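RNA from whole ileum and hypothalamus of piglets was sequenced after poly-A enrichment, with 6 libraries in each of 8 groups. The submitters' processing notes name Trim Galore, kallisto, DESeq2 and the build Sscrofa11.1, while their versions, order and annotation were not given in the sources used here. Gene-level estimated counts were deposited by the authors, of which 53.04% were not whole, and these were rounded before testing. The normalized signal that the authors deposited equals those counts times 1 factor per library. It was used only as an alternative scaling, and its 1 cell that was not a number was left out. Ensembl identifiers were matched to symbols through a RefSeq table of that build, whose coordinates are counted from 1.

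The genes of a tissue were fitted together over its 24 libraries with edgeR 4.0.16 in R 4.3.3 (TMM scaling, filterByExpr with count minimum 10 and total minimum 15, quasi-likelihood F test, two-sided). Benjamini-Hochberg adjustment ran over the 15256 genes of ileum or 15865 of hypothalamus, with a threshold of 0.05. No covariate entered. Common biological coefficients of variation were 0.349 (ileum) and 0.435 (hypothalamus). CPM uses TMM-scaled library sizes, and log2 CPM adds a prior count of 2. No library pair was identical. The scripts were tested on simulated data. Alternatives were RLE scaling, the authors' factors, no filter, DESeq2 1.42.0, limma 3.58.1 voom, the libraries of 1 day, each library left out, ileum day 7 high growth replicates 1 and 5 left out together, and a replicate block for the tissue comparison.

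The members and lists were chosen with earlier results of these data known. Named members are 12 anchors (ISG15, MX1, OAS1, IFIT1, RSAD2, USP18, STAT2, IRF1, IRF7, RIGI, IFIH1 and BST2), the 4 of lowest p in each tissue and contrast, the 3 highest and 3 lowest by mean log2 CPM in each tissue and the 4 of largest tissue difference. Of the other interferon pathway genes, the 3 of lowest p are named per growth contrast. IFNB1, IFNG, SP110 and the neighbouring pairs were named after their values were seen, as were members named as exceptions to a count. Promoter and protein sequences were not used here.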

Additional observations from a re-analysis of the deposited data

Results flagged for a closer look

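In 9 of 104 checks of a group of 6, a library lay farther from its nearest neighbour than Dixon's 95% limit allows, and chance alone flags about 1 in 20 groups. All values are log2 CPM. In hypothalamus day 7 high growth, 6 of the 9 fell on replicate 2. Its mean over the members was 6.74, where the next library had 4.84. STAT2 was 7.89 there (next 6.5), MX1 9.92 (next 7.89), IRF7 6.51 (next 4.27), BST2 7.68 (next 4.35) and ISG15 9.47 (next 6.81). These 6 are not independent, since many members were high in the same libraries.

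In ileum the flagged values fell on different libraries. IRF1 was 8.48 in day 7 low growth replicate 3, where the next library had 7.22. BST2 was 8.23 in day 7 low growth replicate 6 (next 5.97), and STAT2 was 8.84 in day 39 low growth replicate 2 (next 7.91). Day 7 high growth replicate 1, the highest ileum library in 40 of 45 members, was not among them.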

How the results depend on the processing

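The count of members called for growth, for day or for the difference of growth effects was 0 in each tissue under every alternative run, and 42 members were called between tissues under each alternative of that test. With library numbers 108 apart taken as 1 animal (a replicate block chosen after seeing the data), 42 members were also called, and the same 3 were not. The deviations from group means correlated by over 0.1 across genes in 10 of 24 such pairs (-0.069 to 0.19). Of the hypothalamus libraries, 11 of 24 were most like their own number in the group of 6, where random order would give 1 in 6. The numbers may thus pair animals, but the labels do not say so and it was not tested. Within a tissue no paired analysis was possible because each library has its own number. The median log2 fold change of the members in ileum on day 7 ranged from -0.845 to -0.287 when single libraries were left out. Leaving out single libraries moved the median across 0 in ileum on day 39 (-0.559 to 0.103) and for day (-0.369 to 0.040), and in hypothalamus on day 7 (-0.603 to 0.536), on day 39 (-0.064 to 0.185), for day (-0.194 to 0.247) and for the difference (-0.499 to 0.631). In ileum the median difference ranged from 0.021 to 0.752. With limma voom the ileum medians were -0.302 on day 39 (36 members below 0) and 0.185 for the difference (35 above 0).

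Of the named log2 fold changes under their alternatives, 1324 kept their direction and side of the threshold and 8 turned in sign. STAT2 and IFIH1 in ileum on day 7 became 0.044 and 0.062 without high growth replicates 1 and 5. With single libraries left out, IFIT2 in ileum on day 39 ranged from -0.459 to 0.959 and PARP9 from -0.057 to 0.375. In hypothalamus on day 7 RIGI ranged from -1.289 to 0.045 and BST2 from -1.886 to 0.636, and BST2 in the difference of growth effects from -0.375 to 2.158. GBP1 in hypothalamus for day became 0.079 with limma voom, from -0.881, and the cause was not tested. The planned promoter motif search was not run. Members near 0 counts in hypothalamus, OASL and ISG20, are limited by depth.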
